A study of Mus musculus with 11 samples.

Results

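The genes described here are the potassium channel genes of the mouse, taken as the autosomal protein-coding RefSeq genes whose symbol starts with Kcn. There were 92 of them among 20665 autosomal protein-coding genes. They were followed through chromatin immunoprecipitation and sequencing (ChIP-seq) of 8946, a mouse T-cell leukaemia line. By class, 29 encode voltage-gated pore subunits (Kcna, Kcnb, Kcnc, Kcnd, Kcnh, Kcnq) and 10 encode the silent or modifier subunits that join them (Kcnf, Kcng, Kcns, Kcnv). A further 15 encode inward rectifiers (Kcnj), 14 tandem-pore-domain leak channels (Kcnk) and 8 channels opened by calcium or sodium (Kcnma, Kcnn, Kcnt, Kcnu). The remaining 16 encode auxiliary or regulatory proteins (Kcnab, Kcne, Kcnip, Kcnmb, Kcnrg).

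Potassium channels let potassium leave the cell and so set the membrane potential. In neurons and heart muscle they end and space action potentials. In T cells, potassium outflow through the voltage-gated channel Kv1.3, encoded by Kcna3, and the calcium-activated channel KCa3.1, encoded by Kcnn4, keeps the membrane negative and so sustains calcium entry through Orai channels, which turns on calcineurin and the NFAT factors. Kcna3 and Kcnn4 are called the T-cell channels here. They are set against 24 channel genes known mainly from the nervous system, called neuronal here, and 13 known mainly from heart, which left 53 others.

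The cells carried an epitope-tagged Zmiz1 and an activated Notch1, brought in by retroviruses with NGFR and GFP markers, and doubly marked cells had been sorted. Zmiz1 is a coactivator of the PIAS-like family, ICN1 is the activated intracellular part of Notch1, and ICN1 reaches DNA through its partner Rbpj. The line Flag-Zmiz1/ L1601PDP, called the Flag line, gave the 4 histone libraries (H3K4me1, H3K4me3, H3K27ac, H3K27me3), the precipitations of Rbpj, ICN1 and Flag-Zmiz1, and an input. The line HA-Zmiz1/ DEGFDLNRDP, called the HA line, gave HA-Zmiz1, ICN1 and input. Every group thus shared the tagged Zmiz1 and the activated Notch1, and no cells without them were profiled. The lines differ in tag and in Notch1 construct together, which cannot be told apart. Factor samples were fixed with 2 mM DSG and 1% formaldehyde, and histone samples with 1% formaldehyde only. Each of the 11 samples was 1 library with no replicate, so the values below are described and not tested. Exact (Clopper-Pearson) 95% intervals cover counting error only and take genes as independent.

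Peak lists ran from 82 regions (ICN1, Flag line) to 20993 (Rbpj) at 13450671 to 19048270 filtered tags, so a gene without a peak in the shorter lists was not called there, which is not a measure of absence. A library's call is a peak within 50 kb of the gene span, or, for histone libraries, a segment over either end of the gene. All histone libraries and Rbpj came from the Flag line, so peaks of the HA line are set against chromatin of the other line. The 2 H3K27 libraries went against their labels. H3K27me3 is the mark of Polycomb repression and H3K27ac marks active promoters and enhancers. The library labelled H3K27me3 lay over 10 of 10 T-cell markers (Cd3e, Lck and others) and the library labelled H3K27ac over 0 of 10. The names of the deposited files give these 2 marks the other way round from the sample labels. The libraries are therefore named by their sample labels throughout and no direction is read from their names. H3K4me3, a mark of promoters, lay over 10 of 10 T-cell markers, 0 of 6 B-cell, 1 of 6 myeloid, 2 of 8 neuron and 2 of 8 heart muscle markers.

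The bases just upstream of a few channel genes show where Rbpj peaks met a channel promoter. RefSeq start sites (GRCm38.p6, the assembly of the mm10 build) were at hand for 68 of the 92 genes. An Rbpj peak lay over the 300-base window at the start (250 bases before, 50 after) in 5 of these 68, namely Kcna3, Kcnab2, Kcnh6, Kcnk13 and Kcnmb4. That is 7.35%, against 32% of 16457 genes with a window. No HA-Zmiz1 peak and no ICN1 peak of the HA line lay over a member's window. The share of all genes with such a peak over a window was not counted, so this is not shown to be particular to channel genes. The 250 bases before the start are printed 5′ to 3′ on the gene's strand for Kcna3, Kcnh6 and the outer start of Kcnab2, with the bases under the Rbpj peak in capitals. Kcnn4 had no Rbpj peak there. It is shown as the other T-cell channel, with matches to TGTGGT, the core letters of Runx sites, or its reverse complement in capitals.
Kcna3, chr3:107035912-107036161, plus strand: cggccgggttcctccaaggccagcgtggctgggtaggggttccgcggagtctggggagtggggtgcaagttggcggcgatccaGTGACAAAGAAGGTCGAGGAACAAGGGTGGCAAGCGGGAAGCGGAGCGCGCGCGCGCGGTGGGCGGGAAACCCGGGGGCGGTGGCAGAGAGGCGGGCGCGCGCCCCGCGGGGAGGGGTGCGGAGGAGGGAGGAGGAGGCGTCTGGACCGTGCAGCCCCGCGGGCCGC
Kcnh6, chr11:106007898-106008147, plus strand: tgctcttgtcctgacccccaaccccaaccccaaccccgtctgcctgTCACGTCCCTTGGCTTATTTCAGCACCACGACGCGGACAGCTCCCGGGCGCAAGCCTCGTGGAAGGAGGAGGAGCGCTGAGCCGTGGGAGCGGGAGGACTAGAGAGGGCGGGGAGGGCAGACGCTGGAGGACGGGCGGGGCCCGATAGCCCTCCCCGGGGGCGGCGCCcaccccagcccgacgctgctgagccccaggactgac
Kcnab2, chr4:152477550-152477799, minus strand: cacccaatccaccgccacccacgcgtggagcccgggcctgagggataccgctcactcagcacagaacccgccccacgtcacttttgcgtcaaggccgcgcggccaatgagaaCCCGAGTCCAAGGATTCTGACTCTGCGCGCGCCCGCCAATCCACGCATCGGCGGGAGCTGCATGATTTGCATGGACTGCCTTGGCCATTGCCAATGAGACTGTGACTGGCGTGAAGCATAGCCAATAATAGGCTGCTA
Kcnn4, chr7:24370013-24370262, plus strand: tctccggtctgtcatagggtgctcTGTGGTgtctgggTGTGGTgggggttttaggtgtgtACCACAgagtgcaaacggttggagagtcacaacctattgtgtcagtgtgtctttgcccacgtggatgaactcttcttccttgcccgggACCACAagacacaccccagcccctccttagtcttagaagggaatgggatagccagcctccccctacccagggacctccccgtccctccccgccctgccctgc
The Rbpj peak covered 167 of the printed bases at Kcna3, 168 at Kcnh6 and 138 at this start of Kcnab2. The core letters of the Rbpj site, TGGGAA, searched on both strands, were in none of these 3 stretches. Of the 5 channel genes with an Rbpj peak over a window, 2 held the letters anywhere in the 250 bases, Kcnk13 and Kcnab2 at an inner start. That is 40% against 20.4% of all genes with such a peak. At the inner start of Kcnab2 the peak covered 68 of the 250 bases. The letters there began 216 bases before the start and lay outside the peak. TGGGAA stood in 15 of the 68 channel windows upstream of the start (22.1%), against 21% of all genes. TGTGGT was found 4 times upstream of Kcnn4, and at least once in 10 of 68 channel windows (14.7%) against 12.3% of all. The Ets letters CCGGAAGT were in 0 of 68 channel windows and in 3.95% of all. A match describes letters and does not show binding.

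Both T-cell channels lay in H3K4me3 and in the library labelled H3K27me3, and neither had a segment labelled H3K27ac over an end or an ICN1 peak in either line. At Kcna3 (chr3:107036162-107038129, 1.968 kb long), the H3K4me3 segment was 11.6 kb wide, ran past both ends and held 4143 reads against 350 in the control, 18.2-fold. The segment labelled H3K27me3 was 17.2 kb wide at 4.03-fold and also ran past both ends, and an H3K4me1 segment of 3.2 kb at 2.29-fold covered the start. The Rbpj peak at the Kcna3 start, over the bases printed above, was 8.95-fold over input, rank 3080 of its list by p, with its summit 0.057 kb from the start. This 11.6 kb H3K4me3 segment was the widest over an end of any channel gene. The HA-Zmiz1 peak counted for Kcna3 lay 42.8 kb downstream (10.3-fold, rank 494), inside the long noncoding RNA gene Gm38712 and 9.84 kb from Kcna2, and 2 Rbpj peaks (7.27- and 3.65-fold) overlapped it. Of the members with an HA-Zmiz1 peak, Kcna3 was the one whose nearest peak was farthest, and the first gene outside the limit was Kcng1, at 52.6 kb (7.46-fold).

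At Kcnn4 (chr7:24369826-24385212), the H3K4me3 segment over the start was 6.4 kb wide at 9.52-fold. H3K4me1 covered both ends in segments of 5.8 kb (3.70-fold) and 14.2 kb (3.49-fold), and 1 segment labelled H3K27me3 of 22.2 kb (5.73-fold) ran past both ends. An HA-Zmiz1 peak of 4.42-fold, rank 4442 of 4984 and so among the weaker of its list, lay inside the gene. It overlapped an Rbpj peak of 8.47-fold, and a second Rbpj peak inside the gene reached 10.6-fold. A Flag-Zmiz1 peak of 10.4-fold, rank 37 of its list, lay 10.3 kb upstream over an Rbpj peak of 4.20-fold, and was nearer to Lypd5 than to Kcnn4. Its local input was 5.31 times the library's mean background, and no histone segment held its summit. The Zmiz1 peaks of both lines near Kcnn4 were thus at different places.

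**Figure D1:**
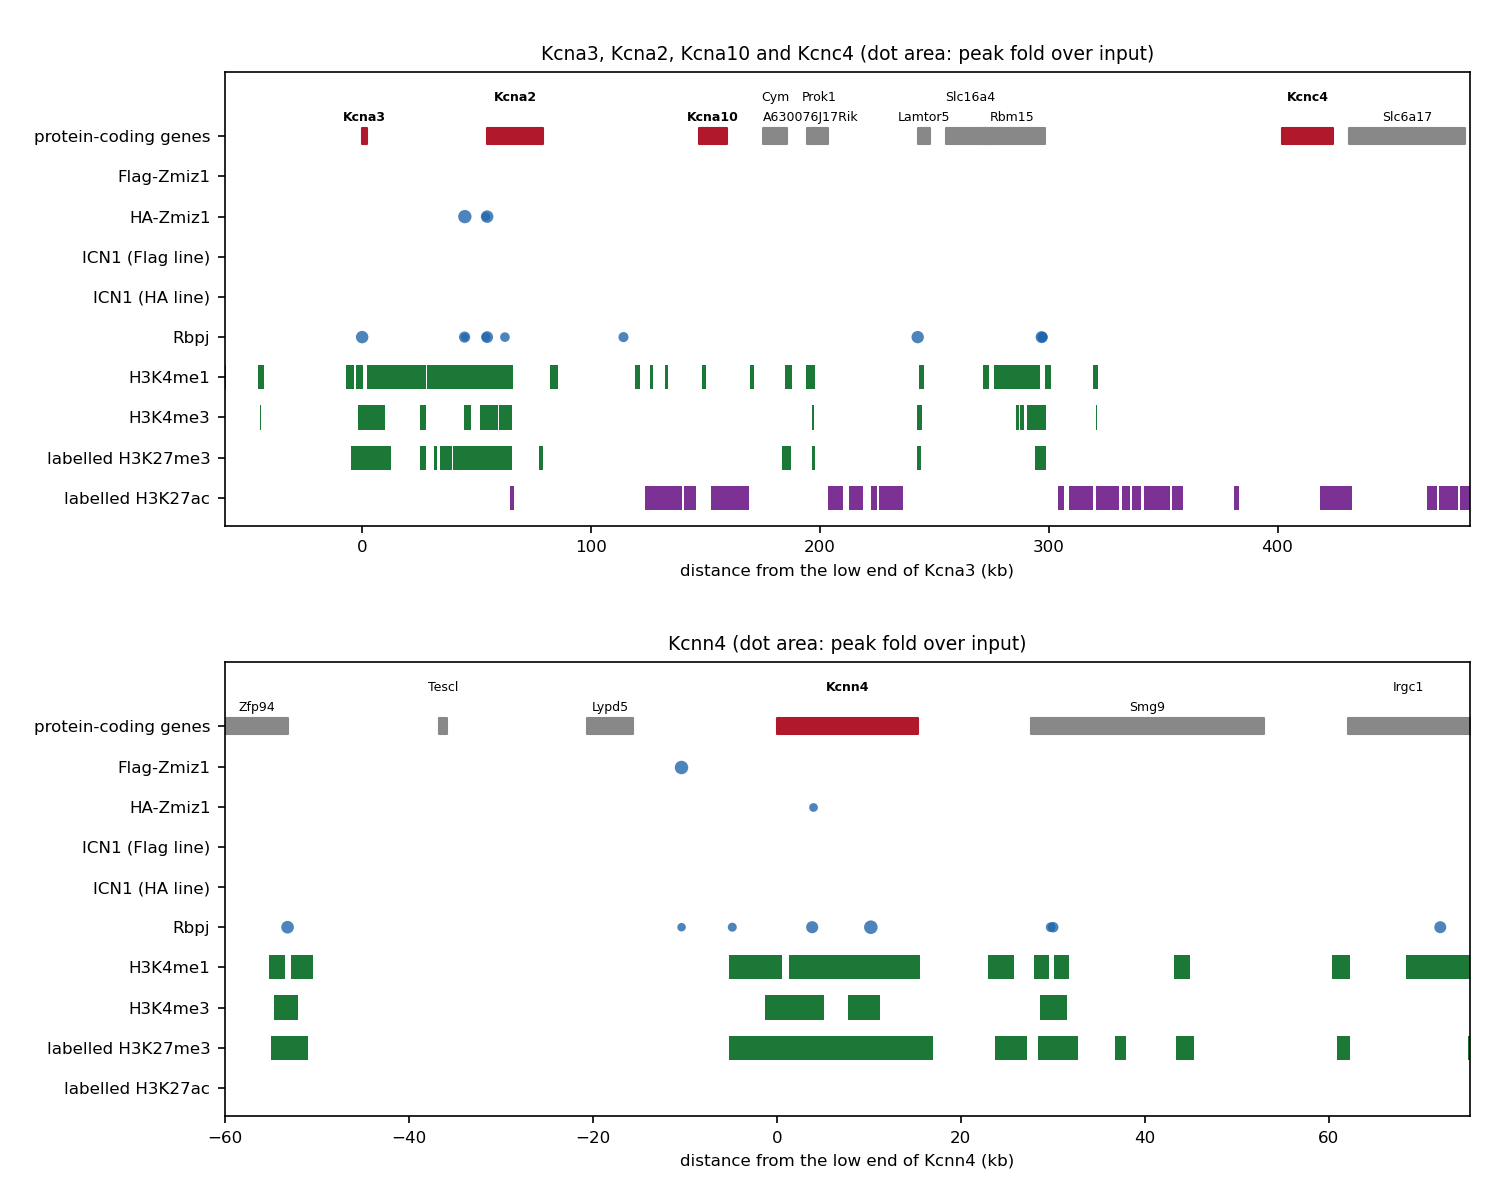
Peaks and segments around Kcna3 (upper map) and Kcnn4 (lower map), with distance in kb from the low end of each gene on the x axis. Dots are peak summits with area in proportion to fold, green and purple bars are histone segments, and red bars are potassium channel genes. Kcna3, Kcna2 and Kcnn4 sit in green bars, while purple bars lie over Kcna10 and an end of Kcnc4.

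The neighbours of Kcna3 are channel genes too. Kcna2, which encodes the neuronal channel Kv1.2, had 3 HA-Zmiz1 peaks (10.3-, 9.10- and 4.42-fold), 6 Rbpj peaks, and segments of H3K4me1 (37.4 kb, 3.91-fold), H3K4me3 (8.2 kb, 9.49-fold) and the library labelled H3K27me3 (25.8 kb, 6.23-fold) over its low end. The HA-Zmiz1 peak nearest to Kcna2 was 0.072 kb upstream of the span, and the summits of all 3 fell inside Gm38712, which overlaps that end of Kcna2. Peaks there cannot be assigned to 1 of these genes. A segment labelled H3K27ac of 3.08-fold lay inside Kcna2, over a RefSeq start but over neither end. Kcna10 carried none of these 3 marks over an end but a segment labelled H3K27ac of 16.4 kb (2.84-fold), and had 1 Rbpj peak. Kcnc4 had a segment labelled H3K27ac of 13.8 kb (3.84-fold) and no factor peak. Voltage-gated channel genes thus lay in different chromatin within 1 locus, as the map of the Kcna3 region shows.

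Across all channel genes, H3K4me3 and the library labelled H3K27me3 were less frequent than among all genes and the library labelled H3K27ac more frequent. An H3K4me3 segment lay over an end of 21 of 92 members, 22.8% (14.7 to 32.8%), against 48.0% of all genes. The library labelled H3K27me3 was called at 15, 16.3% (9.42 to 25.5%), against 44.5%. The library labelled H3K27ac was called at 42, 45.7% (35.2 to 56.4%), against 19.7%. H3K4me1 was called at 22, 23.9%, close to the 25.0% of all genes. With segments within 1 kb of an end also counted, H3K4me1 was called at 30.4% of members against 51.8% of all genes. Channel genes are longer than most, with a median span of 34.546 kb against 17.491 kb. Whether span bears on the shares was not tested.

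**Figure D2:**
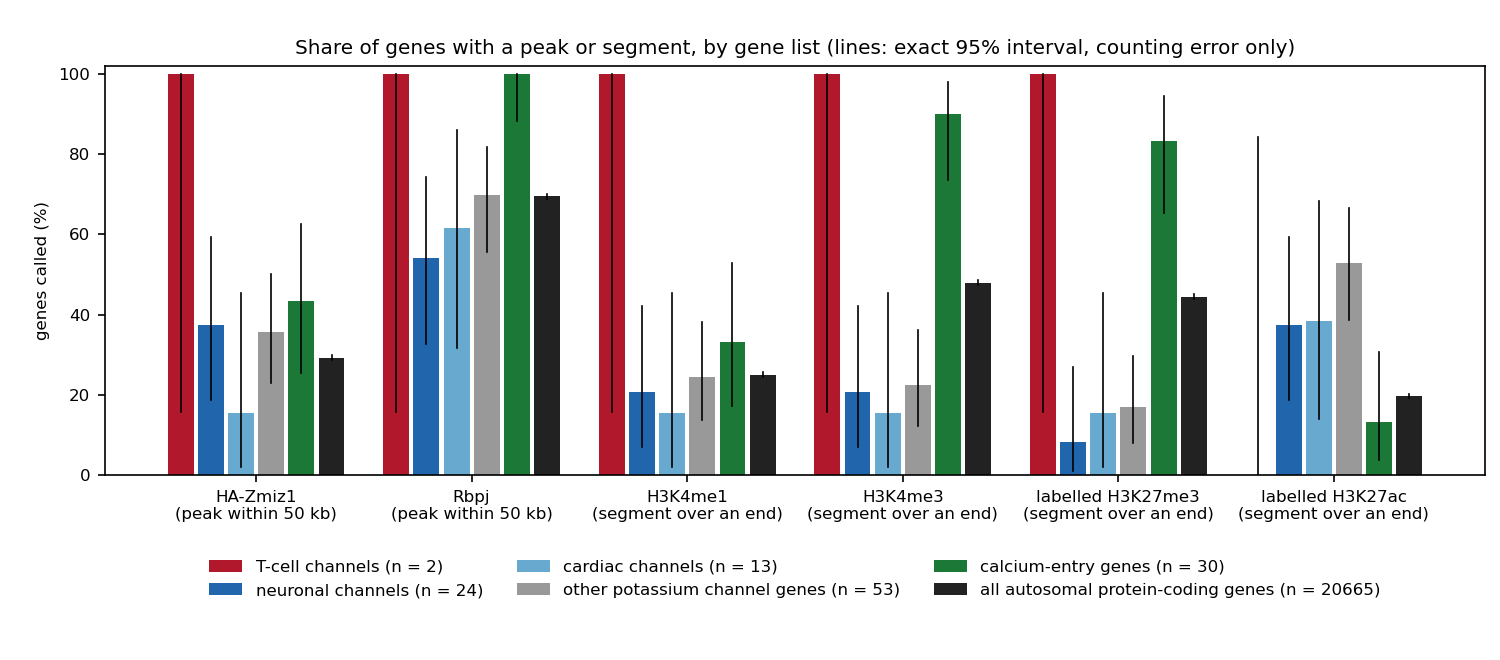
Share of genes called (%, y axis) in 6 libraries for 5 gene lists and all autosomal protein-coding genes, with exact 95% intervals as lines. For H3K4me3 the bars stand at 20.8% for neuronal, 15.4% for cardiac and 90.0% for calcium-entry genes beside 48.0% for all genes, and with 2 T-cell channels the interval runs from 15.8 to 100%.

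Few neuronal or cardiac genes had the marks that both T-cell channels had. Of 24 neuronal genes, 5 had H3K4me3 (Kcna2 9.49-fold, Kcnn1 9.16-fold, Kcnh3 8.57-fold, Kcnj10 4.14-fold and Kcns2 2.16-fold), against 2 of 2 T-cell channels. Kcna2 and Kcnn1, which encodes a small-conductance calcium-activated channel, were also in the library labelled H3K27me3, at 6.23- and 2.04-fold. Segments labelled H3K27ac covered 9 neuronal genes, among them Kcnh3 (5.90-fold), the leak channel Kcnk4 (5.50-fold) and the fast-spiking channel Kcnc1 (4.49-fold). Of 13 cardiac genes, H3K4me3 lay at Kcnh2 (8.84-fold), which encodes the hERG channel, and at the inward rectifier gene Kcnj2 (2.66-fold). The library labelled H3K27me3 was called at Kcnh2 (4.50-fold) and at Kcnj8 (6.46-fold), a pore subunit of ATP-sensitive channels. The library labelled H3K27ac covered 5 cardiac genes, among them Kcnj5 at 4.05-fold over 12.2 kb and Kcnq1 at 3.14-fold over 14.4 kb. The intervals of the neuronal and cardiac shares overlapped in every library plotted.

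Taking the 3 marks together, 9 members had H3K4me3 with the library labelled H3K27me3 and no segment labelled H3K27ac, which is 9.78% against 40.0% of all genes. Besides Kcna3, Kcnn4, Kcna2, Kcnh2 and Kcnn1 these were Kcnab2, Kcnk7, Kcnmb4 and Kcnq5. Kcnab2 encodes an oxidoreductase-like beta subunit that binds Kv1 channels, and its H3K4me3 of 19.5-fold (686 against 54 reads) was the highest of all channel genes. Nphp4 overlaps that end of Kcnab2, so the segment cannot be assigned to 1 of them. Kcnab2 was followed by the M-current subunit gene Kcnq5 at 18.7-fold and by Kcna3. Kcnmb4, a beta subunit of the large-conductance channel, reached 13.6-fold. Over the 21 members with H3K4me3 the median was 9.49-fold (range 2.16 to 19.5), against a median of 14.6-fold over all genes with the mark.

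A second set of 7 had H3K4me3 with the library labelled H3K27ac and not the library labelled H3K27me3, 7.61% against 3.90% of all genes. It held Kcnh3, Kcnh4, Kcnh5 and Kcnh8 of the ether-a-go-go family, Kcnj2, Kcnj10 and Kcnk6. At Kcnh3 the segment labelled H3K27ac was 14.2 kb wide at 5.90-fold, rank 184 of 25172 by fold, around an H3K4me3 segment of 3.4 kb. Kcnh8 had H3K4me3 of 12.1-fold inside a segment labelled H3K27ac of 8.6 kb. Kcnk6 had 13.5-fold H3K4me3 under a weak segment labelled H3K27ac of 1.65-fold.

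All 3 marks were called at Kcnab3, Kcnf1, Kcnk5 and Kcns3, which is 4.35% of members against 2.33% of all genes. At Kcns3, which encodes a silent Kv subunit, the marks lay at opposite ends. H3K4me3 (4.71-fold) and the segment labelled H3K27me3 (5.81-fold) covered the downstream end, and the segment labelled H3K27ac (2.45-fold, 5.6 kb) covered the start. The Kcns3 HA-Zmiz1 peak, 17.2-fold and rank 45, lay at that downstream end, 0.778 kb outside the gene. At Kcnab3, Kcnf1 and Kcnk5 all 3 marks covered the same end, and at Kcnab3 the segment labelled H3K27ac covered the other end too.

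A segment labelled H3K27ac without H3K4me3 or the library labelled H3K27me3 lay at 30 members (32.6% against 13.2% of all genes). Over all 42 members with any segment labelled H3K27ac, the widest was at the inward rectifier gene Kcnj4. It covered both ends over 49.4 kb (3.76-fold, 2415 against 1168 reads). That at Kcnj10, which also had H3K4me3, was 19.8 kb (2.90-fold). Kcna7 lay whole within 15.4 kb at 5.58-fold. The median over the 42 members was 2.85-fold and 7.4 kb wide, against 3.10-fold and 8.2 kb over all genes with such a segment. By class, any segment labelled H3K27ac covered 7 of 10 silent or modifier subunits, 15 of 29 voltage-gated pore subunits and 7 of 15 inward rectifiers. It covered 6 of 14 tandem-pore-domain genes, 5 of 16 auxiliary genes and 2 of 8 calcium- or sodium-activated genes, against 19.7% of all genes. None of the 4 histone libraries was called at 36 members (39.1% against 34.7% of all), and 16 had no call in any of the 9 libraries (17.4% against 22.7%). Those 16 included the neuronal genes Kcna4, Kcnb2, Kcnd2, Kcnj6, Kcnq3, Kcnt2 and Kcnv1 and the cardiac genes Kcna5 and Kcnj3.

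**Figure D3:**
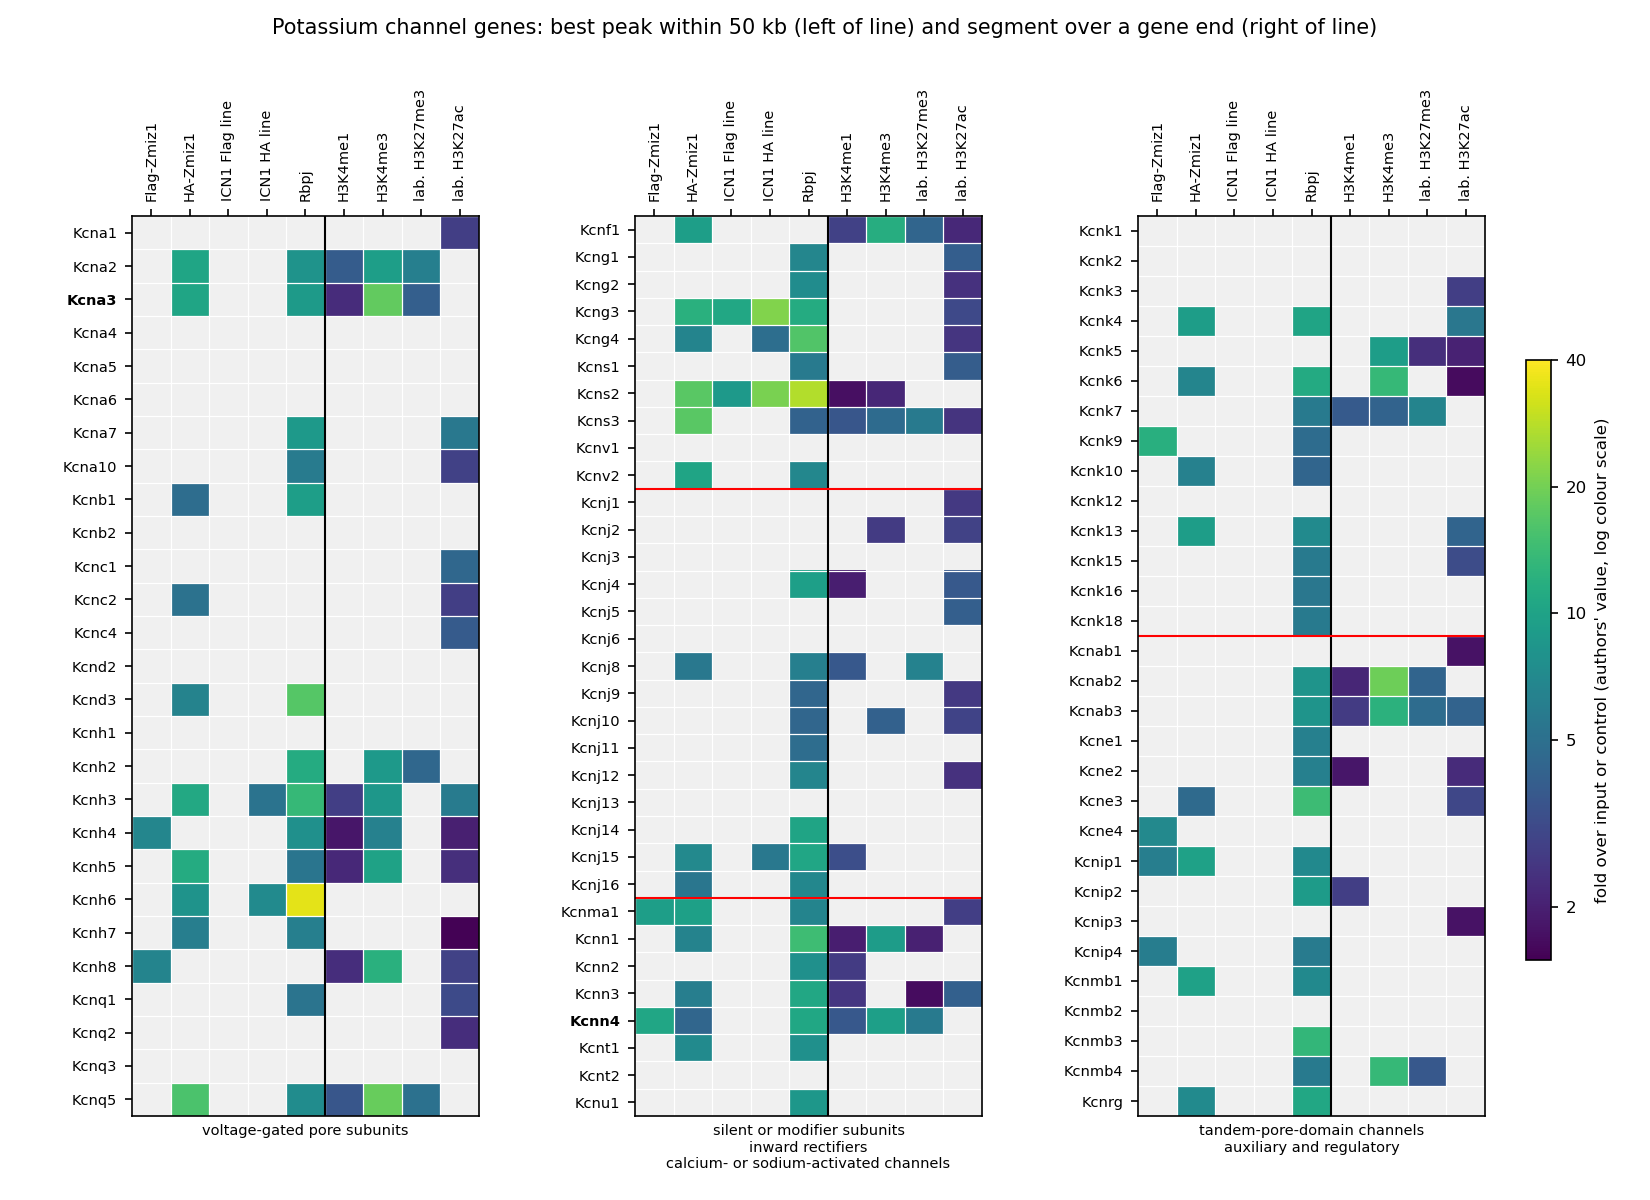
Fold over input or control (colour, log scale) for 90 of the 92 members in rows, by class, and the 9 ChIP libraries in columns. Factor columns show the fold of the peak with the lowest p within 50 kb, histone columns the segment over a gene end, and grey cells have no call. The last column is filled at 40 of the genes drawn and the H3K4me3 column at 21, and the T-cell channels are in bold.

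The shares of channel genes near Rbpj and HA-Zmiz1 peaks had intervals that held the shares of all genes. Rbpj was called at 60 members, 65.2% (54.6 to 74.9%), against 69.5% of all genes, including 13 of 24 neuronal and 8 of 13 cardiac genes. Under stricter rules the Rbpj share was lower than that of all genes, at 48.9% against 60.6% with peaks of p 1e-10 or less and 37% against 50.5% within 5 kb. Within 200 kb the Rbpj share was higher, at 91.3% against 83.1%. HA-Zmiz1 was called at 32, 34.8% (25.1 to 45.4%), against 29.3%, including 9 neuronal and 2 cardiac genes. Flag-Zmiz1 was called at 8, 8.70% (3.83 to 16.4%), against 4.27%. ICN1 was called at 6 in the HA line, 6.52% (2.43 to 13.7%) against 3.53%, and at 2 in the Flag line, 2.17% (0.264 to 7.63%) against 0.227%. The last rests on Kcng3 and Kcns2, and on Kcng3 alone where each peak is given to its nearest gene. Of 32 members with HA-Zmiz1, 30 also had Rbpj, all but Kcnc2 and Kcnf1, as did 5957 of all 6063 genes with HA-Zmiz1.

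The 44 distinct HA-Zmiz1 peaks near members ranged from 4.14- to 17.2-fold with a median of 6.64, against 6.53 over the whole list. Of these, 9 lay inside a member and 26 had a member as the nearest coding gene, so 18 were nearer to another gene. An Rbpj peak overlapped 33 of the 44 (75.0%), against 71.4% of all 4948 autosomal HA-Zmiz1 peaks. Summits fell in H3K4me3 at 39 sites, in H3K4me1 at 34, in the library labelled H3K27me3 at 41, and in the library labelled H3K27ac at 0. Over all autosomal HA-Zmiz1 peaks the shares were 92.7% for H3K4me3, 81.9% for H3K4me1, 93.4% for the library labelled H3K27me3 and 1.92% for that labelled H3K27ac. Of the 32 members near these sites, 21 had no H3K4me3 over an end of their own, against 1829 of all 6063 genes with HA-Zmiz1.

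Among single sites, the HA-Zmiz1 peak inside Kcnq5 (chr1:21469244-21469630) reached 15.8-fold, rank 74, over an Rbpj peak of 5.84-fold. A 17.2-fold HA-Zmiz1 peak, rank 21, lay 47.3 kb from the silent subunit gene Kcns2, inside Stk3. At the same place were ICN1 of 20.7-fold (rank 5) in the HA line and 8.85-fold in the Flag line, and Rbpj of 27.3-fold (rank 20). Kcns2 itself, between 4 HA-Zmiz1 peaks, had weak H3K4me3 of 2.16-fold. Kcnma1, the large-conductance channel gene, held 3 HA-Zmiz1 peaks of 4.14-, 6.80- and 9.64-fold in its own span. At Kcnn1, 4 HA-Zmiz1 peaks of 4.79- to 6.53-fold lay on both sides, each nearer to another coding gene, among them Il12rb1 and Arrdc2. The HA-Zmiz1 peaks for Kcnh5 (11.4-fold, 29.4 kb downstream) and Kcnv2 (25.5 kb away) had no nearer coding gene.

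**Figure D4:**
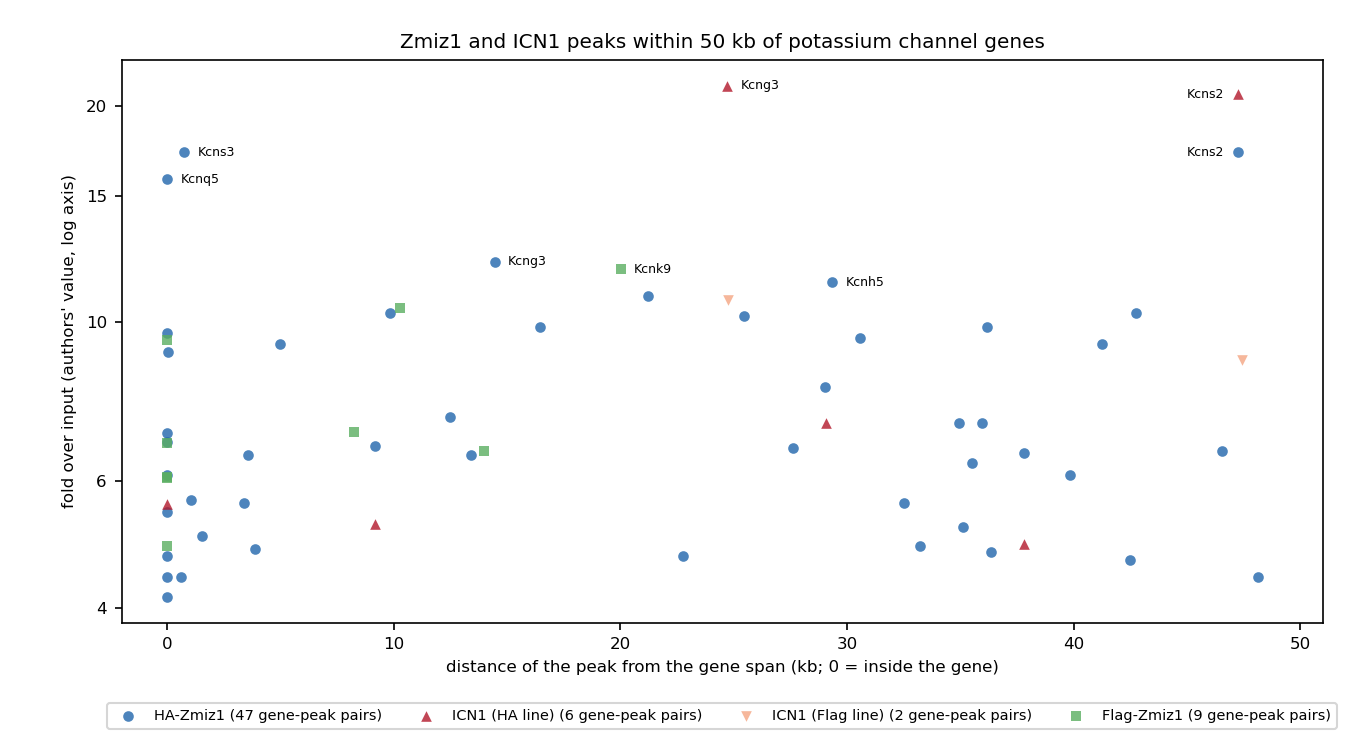
Distance of each Zmiz1 and ICN1 peak from the channel gene it was counted for (kb, x axis) against its fold over input (y axis, log scale), with 1 point for each gene and peak and names above 11-fold. Kcns3 and Kcnq5 stand at or beside the gene at 17.2- and 15.8-fold, while the Kcns2 points at 17.2- and 20.7-fold lie over 47 kb away.

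All 6 members with ICN1 in the HA line (Kcng3, Kcng4, Kcnh3, Kcnh6, Kcnj15, Kcns2) also had HA-Zmiz1 and Rbpj within the window. Of all 729 genes with ICN1 in the HA line, 639 had HA-Zmiz1 and 724 had Rbpj. An Rbpj peak overlapped all 6 ICN1 peaks and an HA-Zmiz1 peak overlapped 5. All 6 summits lay in H3K4me3 and in the library labelled H3K27me3. Shares of the whole ICN1 list for these overlaps and marks were not counted. The peak without an overlapping HA-Zmiz1 peak was the site 24.7 kb downstream of the modifier subunit gene Kcng3. It lay at chr17:83549120-83549308 inside the long noncoding RNA gene Gm41635. ICN1 reached 21.3-fold there in the HA line (rank 9) and 10.7-fold in the Flag line (rank 25), with Rbpj of 11.3-fold, and the HA-Zmiz1 peak of 12.1-fold stood apart, 14.5 kb from Kcng3 inside Gm34801. Kcng3 was the nearest coding gene of both sites, and was itself covered at an end only by the library labelled H3K27ac.

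Of the other ICN1 sites, only that of Kcnj15, an inward rectifier gene, lay inside the channel gene, with ICN1 of 5.59-fold, HA-Zmiz1 of 7.00-fold and Rbpj of 10.5-fold. ICN1 near Kcnh6 (7.24-fold, 29.1 kb upstream) fell inside Ace, that near Kcng4 (4.90-fold) inside Dnaaf1 and that near Kcnh3 (5.22-fold) beside Mcrs1. Kcnh6 held the Rbpj peak of highest fold near any member, at 35.1-fold over input and rank 33 of 20993 by p, 0.022 kb from its low end and over the bases printed above. No histone library was called over an end of Kcnh6, and neither Zmiz1 nor ICN1 was called at that peak.

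Flag-Zmiz1 gave 9 peaks near 8 members, at Kcne4, Kcnip1, Kcnip4 (2 peaks), Kcnh4, Kcnh8, Kcnma1, Kcnk9 and Kcnn4. None overlapped an HA-Zmiz1 or ICN1 peak, and 2 overlapped Rbpj (Kcnk9 and Kcnn4). Over the whole list, 27 of 4948 autosomal HA-Zmiz1 peaks (0.546%) had Flag-Zmiz1 at the site. Of the 9 Flag-Zmiz1 summits, 0 lay in H3K4me1, H3K4me3 or the library labelled H3K27me3, and 1, at Kcnma1, lay in the library labelled H3K27ac. Shares of the whole Flag-Zmiz1 list in these marks or over Rbpj were not counted, so these values are not shown to be particular to channel genes. HA-Zmiz1 summits lay in H3K4me3 at 39 of 44. The highest Flag-Zmiz1 peak was at Kcnk9, 11.8-fold and rank 9, where the local input was 8.86 times the mean background. Kcnn4, Kcnma1 and Kcnip1 had peaks of both tags, at separate sites. Antibody, tag, Notch1 construct and line change together between these libraries and cannot be told apart.

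The calcium-entry pathway that the T-cell channels serve was followed in 30 genes. Rbpj was called at 30 of 30, against 69.5% of all genes, and H3K4me3 at 27 (90.0% against 48.0%). The library labelled H3K27me3 was called at 25 (83.3% against 44.5%) and HA-Zmiz1 at 13 (43.3% against 29.3%). The library labelled H3K27ac was called at 4 (13.3% against 19.7%), namely Atp2a3, Nfatc1, Nfatc4 and Ppp3cc. The 30 genes are longer still, with a median span of 68.448 kb. Of the pore genes, H3K4me3 stood at 9.92-fold for Orai1, 15.8-fold for Orai2 and 11.3-fold for Orai3. Stim1, the calcium sensor of the endoplasmic reticulum, had no H3K4me3 over an end, although HA-Zmiz1 lay inside it (5.66-fold). Among the IP3 receptor genes, which release stored calcium, Itpr2 had 7 HA-Zmiz1 peaks and an ICN1 site inside the gene at 10.5-fold in the HA line and 5.98-fold in the Flag line. Nfatc3 had 7 HA-Zmiz1 peaks of up to 10.7-fold with ICN1 of 6.87-fold upstream. H3K4me3 was thus called at most genes of this list and at both T-cell channels, and at few neuronal, cardiac or other channel genes. With 2 T-cell channels this is a description of those genes.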

How the data were processed

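ChIP-seq libraries of 2 lines were used as 9 precipitations and 2 inputs. Per the file headers, the authors called factor peaks with MACS 2.0.10.20120913 at a p limit of 1e-05 and 1 tag per position, each library against its line's input. Reads of the HA line are named as pooled in its headers. The mm10 build, SICER 1.1, MACS2 2.0.10, HOMER 4.2, Bowtie 0.12.7 and FastQC 0.10.0 are named by the submitters' processing notes. Deposited values are, per the file headers, a pileup signal, a fold (ratio) over local input and a −log10 p for each peak, and for each segment read counts, a fold over control and a p-value, all made by the authors. Segment ends move in steps of 200 bp. Ranks are within a list, by −log10 p for peaks and by fold for segments.

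Here, peaks within 50 kb of RefSeq gene spans and segments over either gene end were counted with Python 3.11.15 and pandas 2.3.3, and the overlap of sites needed 1 bp. Intervals are exact (scipy 1.17.1). The overlap code was tested on simulated regions. Local input was recovered as (pileup + 1) / fold − 1, and none of the peaks near members reached 10 times the library's mean. The members, tissue lists, calcium-entry list, motifs and rule for named genes (both T-cell channels, members with Zmiz1 or ICN1 peaks up to 30, the strongest Rbpj, H3K4me3 members, the widest segments of the library labelled H3K27ac) were chosen with earlier results of these data known. Channel genes named as having no call, and sites singled out for their neighbours, were picked after their values were seen. Alternatives covered the window, the p limit, the nearest gene and the part of the gene a segment must cover. Exon structure and channel proteins were not used here, and some genes counted in the lists are not reported here by name. A replicate-based test could not be made with 1 library per target and line.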

Additional observations from a re-analysis of the deposited data

How the results depend on the processing

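Of 46 alternatives, 26 kept the count of members within 1.5 times and 20 moved it. A narrower window can only lower a count and a wider one can only raise it. Within 200 kb, Rbpj (84 members, 91.3% against 83.1% of all genes) and ICN1 of the Flag line (3, 3.26% against 0.76%) stayed within 1.5 times. Within 5 kb the counts were 4 for Flag-Zmiz1 (4.35% against 1.43% of all genes), 12 for HA-Zmiz1 (13% against 12.7%) and 34 for Rbpj (37% against 50.5%). ICN1 was called within 5 kb at 0 in the Flag line (0.0871% of all genes) and at 1 in the HA line (1.09% against 1.24%). Within 200 kb the counts were 15 for Flag-Zmiz1 (16.3% against 12.8%), 59 for HA-Zmiz1 (64.1% against 55.4%) and 15 for ICN1 of the HA line (16.3% against 10.1%). Measured from the gene ends alone, Flag-Zmiz1 was called at 5 (5.43% against 3.98%). With peaks of p 1e-10 or less, HA-Zmiz1 was called at 21 (22.8% against 17.5%) and ICN1 of the HA line at 3 (3.26% against 1.94%). Giving each peak to its nearest gene left 19 for HA-Zmiz1 (20.7% against 13.2%) and 37 for Rbpj (40.2% against 46.8%). By the same rule, ICN1 was left at 1 in the Flag line (1.09% against 0.131%) and 2 in the HA line (2.17% against 1.48%). Segments anywhere over the span were called at 47 members for H3K4me1 (51.1% against 57.8%) and 40 for H3K4me3 (43.5% against 57.7%). For the library labelled H3K27me3 they were called at 33 (35.9% against 53.8%). H3K4me1 was called at 14 of 68 at the start (20.6% against 17.3%) and at 13 with the upper 50% of segments (14.1% against 12.3%). The library labelled H3K27ac stayed within 34 to 60 members in its 4 alternatives, each time a larger share than among all genes. No paired analysis was possible because each target and line had 1 library. Shallow lists such as ICN1 of the Flag line, with 82 peaks, limit what their counts can show.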
